A study of Mus musculus with 2 samples.

Results

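The cells described here are 57 macrophages of the library titled positive, chosen from its 10842 barcodes by their own counts. A barcode was taken when its unique molecular identifiers (UMIs, 1 per captured RNA molecule) of the myeloid genes Tyrobp, Fcer1g and Ctss summed to at least 15. It had to hold at most 1 UMI of the neutrophil gene Csf3r, at most 5 of the epithelial genes Epcam, Krt8 and Krt18, and at most 3 of the microglia genes P2ry12, Tmem119, Siglech and Cx3cr1. It further had to hold at most 4 UMIs of Arg1 and at most 2 of Cxcl9, and at least 5 of Ccl8, Ms4a7 and Apoc1 summed. The 57 cells were 0.526% of the library (exact Clopper-Pearson 95% interval 0.398 to 0.681%, counting error only), and the whole series held 21259 barcodes. Single-cell RNA had been captured on a Singleron GEXSCOPE chip from brain tissue of Balb/c mice. The mice modelled brain metastasis of breast cancer, with 1 library titled positive and 1 titled control. Both are labelled TNBC, triple-negative breast cancer. The treatment label contradicts the titles, since it puts the library titled positive without, and the one titled control with, metastasis of 4T1 (mouse mammary carcinoma cells). Groups are therefore called by title, and none is taken as the one that had metastases. No age, sex or number of animals is given in the sources used here.

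Macrophages of the brain come from resident microglia, from long-lived macrophages of the meninges and vessels (border macrophages), and from monocytes that enter from blood. Ccl8 encodes a CC chemokine, a small secreted protein that draws leukocytes. Apoc1 encodes an apolipoprotein of lipid particles, and Ms4a7 a membrane protein found in border macrophages and monocyte-derived cells more than in homeostatic microglia. Arg1 encodes arginase 1, which degrades arginine and marks many tumour-associated macrophages, and Cxcl9 encodes a chemokine induced by interferon gamma.

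The 57 cells were set against 4 groups. Within the titled positive library these were 615 Arg1-high macrophages (at least 5 Arg1 and at most 2 Cxcl9 UMIs), 242 Cxcl9 macrophages (at most 4 Arg1 and at least 3 Cxcl9 UMIs), and 189 microglia-gated cells (at least 8 UMIs of the 4 microglia genes). The microglia comparison was added after the data were seen. In the titled control library the same rule gave 24 cells, 0.230% of its 10417 barcodes (0.148 to 0.343%). Of the barcodes past the first 4 conditions, the 57 were 2.98% (2.26 to 3.84%) of 1914 in the titled positive library and the 24 were 13.6% (8.88 to 19.5%) of 177 in the titled control library. With 1 library per title and groups cut from the same library, no difference has a replicate check and no test was run. Levels are CPM, the UMIs of a gene per 1000000 UMIs of the summed cells, with exact Poisson 95% intervals, which cover counting error only.

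The 3 genes that chose the cells were rarely all found in 1 cell. Ccl8 had no UMI in 29 of the 57 cells, so that calling all of them Ccl8-expressing goes beyond the counts. It was found in 28 cells, 18 of which held at least 5 UMIs, and a single cell held 122 of its 430 UMIs (28.4%). Ms4a7 was found in 29 cells (106 UMIs, at most 11 per cell) and Apoc1 in 31 cells (203 UMIs, at most 17 per cell). UMIs of all 3 genes were present in 3 cells, and 1 cell held at least 5 UMIs of 2 of them. Ccl8 and Ms4a7 were both present in 17 cells, Ccl8 and Apoc1 in 8, and Ms4a7 and Apoc1 in 9. By the gene with the most UMIs, 24 cells were Apoc1-led, 21 Ccl8-led and 12 Ms4a7-led, without ties. All 24 titled control cells were Ms4a7-led, and Apoc1 had no UMI in them.

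**Figure D1:**
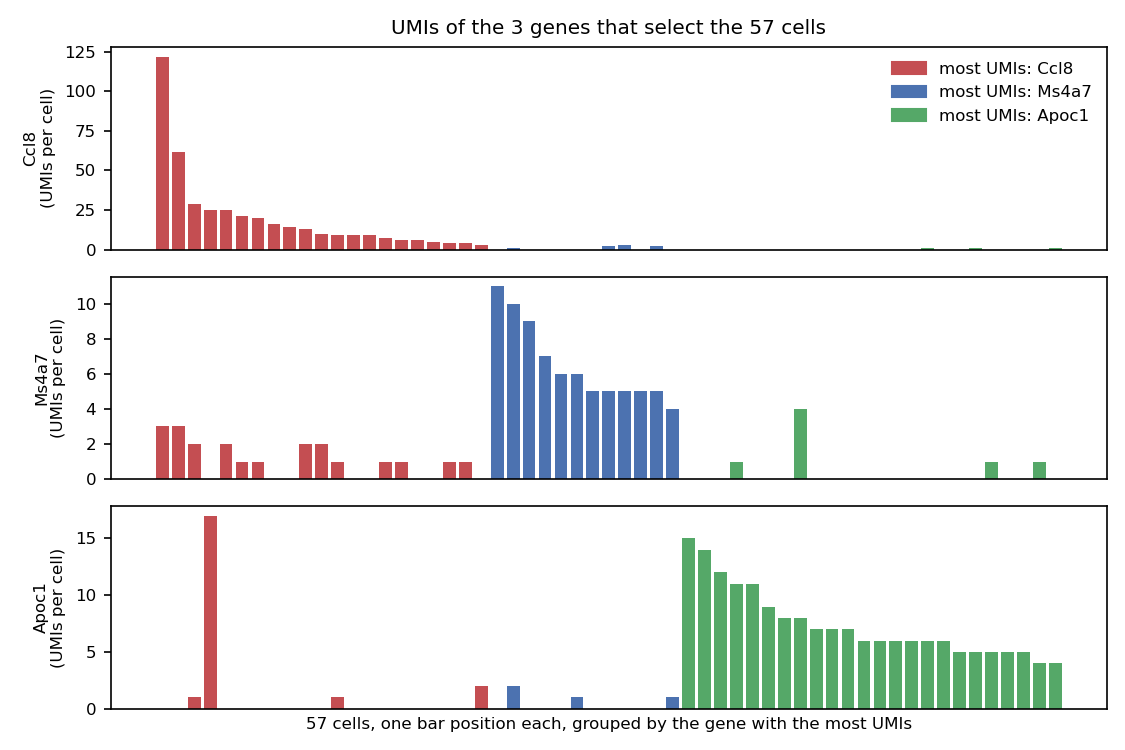
UMIs per cell of Ccl8, Ms4a7 and Apoc1 in the 57 selected cells, 1 bar position per cell in the same order in every panel, coloured by the gene with the most UMIs. The 24 Apoc1-led, 21 Ccl8-led and 12 Ms4a7-led cells form blocks in which the other genes are mostly at 0 or a few UMIs.

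The levels of these genes follow from the rule and are a description. Ccl8 stood at 1444 CPM in the selected cells (1311 to 1587), against 383 CPM in Arg1-high macrophages, 793 in Cxcl9 macrophages and 195 in the titled control cells. Ms4a7 stood at 356 CPM, against 104, 129 and 2395 CPM in the same groups. Apoc1 stood at 682 CPM, against 66.9 CPM in Arg1-high and 155 CPM in Cxcl9 macrophages. A UMI of Ccl8, Ms4a7 or Apoc1 was present in 49.1, 50.9 and 54.4% of the selected cells (median depth 4707 UMIs). In oligodendrocyte-gated cells of the same library, which should lack these genes, the shares were 4.83, 1.06 and 3.17% (663 cells, median 4591 UMIs). Of the given markers that the rule did not use, the scavenger receptor gene Msr1 was at 349 CPM in the selected cells (285 to 423), 396 in Arg1-high and 343 in Cxcl9 macrophages. The mannose receptor gene Mrc1 was at 141 CPM (102 to 191), against 283 CPM in Arg1-high and 145 CPM in Cxcl9 macrophages. Msr1 was thus near the level of both neighbours, and Mrc1 lower than in Arg1-high macrophages.

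Many cells lay close to a limit. The sum of Ccl8, Ms4a7 and Apoc1 was 5 or 6 in 21 of the 57 cells, and 48 barcodes that met every other condition had a sum of 3 or 4. Microglia genes summed to 2 or 3 in 30 cells, with 14 barcodes left out at 4 or 5. Arg1 was at 3 or 4 UMIs in 7 cells, with 7 left out at 5 or 6. Cxcl9 was at 1 or 2 UMIs in 22 cells, with 15 left out at 3 or 4.

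The selected cells held 297803 UMIs in all, from 3195 to 11408 per cell, with a median of 1848 genes. Median depth was 4707 UMIs in them, 5057 in Arg1-high macrophages, 4857 in Cxcl9 macrophages, 5666 in microglia-gated cells and 4398.5 in the titled control cells. The libraries differed more, with medians of 7383.5 UMIs over all titled positive and 4230 over all titled control barcodes. Mitochondrial UMIs were at most 4.67% in a selected cell, and none of the 57 was called a doublet, against 3.04% of the library. Of 149 barcodes that occurred in both libraries, 1 was a selected cell.

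All 8 macrophage markers were detected, and their sum was 20279 CPM in the selected cells, 12073 in Arg1-high macrophages, 13168 in Cxcl9 macrophages and 19050.0 in the titled control cells. It was 24378 CPM in microglia-gated cells. Every selected cell held at least 12 UMIs of these markers. Of 4 B cell markers all were at 0 in the selected cells, and 3 of 7 dendritic cell, 3 of 7 T cell and 2 of 5 natural killer cell markers were at 0. The 13 natural killer cell UMIs lay in 1 cell. Endothelial markers held 42 UMIs, of which 39 lay in the deepest cell. The same cell held 20 of 20 UMIs of Cldn5, 36 of 39 of Ackr1, 24 of 25 of Slco1a4 and 40 of 54 of Lrg1, genes that blood vessel cells express. Carcinoma markers summed to 399.6 CPM in the selected cells, 422 CPM in oligodendrocyte-gated cells and 4816 CPM in carcinoma-gated cells of the same library. Oligodendrocyte markers summed to 426 CPM in the selected cells, against 716 CPM in Arg1-high macrophages, 1285 CPM in Cxcl9 macrophages and 6102 CPM in the titled control cells.

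Beyond the genes of the rule, the selected cells had higher levels of several CC chemokine genes, led by Ccl12, and lower levels of monocyte genes than both other macrophage groups of their library. Ccl12, which encodes a monocyte-attracting chemokine, was the gene with the highest ratio over each of them of the genes outside the rule that held 100 UMIs or more in the group where they were higher. It was at 3096 CPM in the selected cells (2899 to 3302), 409 CPM in Arg1-high macrophages (388 to 431) and 748 CPM in Cxcl9 macrophages (702 to 797). The log2 ratio of levels, with 0.5 counts added to each sum, was 2.92 over Arg1-high (2.80 to 3.04) and 2.05 over Cxcl9 macrophages (1.92 to 2.18). Counts per selected cell ran from 0 to 99 UMIs around a median of 3, and 44 of 57 cells held a UMI. Thinned to 2000 UMIs per cell, Ccl12 was found in 70.2% of the selected cells, 20.3% of Arg1-high and 31.0% of Cxcl9 macrophages, and 5.43% of oligodendrocyte-gated cells. Unthinned, the 4 shares were 77.2, 33.2, 41.3 and 13.1%. Microglia-gated cells stood above the selected ones, at 6035 CPM.

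Of the 13 CC chemokine genes listed, 9 passed the expression limit (a mean of at least 10 CPM over both groups, leaving out Ccl8) in the comparison with Arg1-high macrophages. At least 2-fold higher were 3 of them, Ccl2, Ccl7 and Ccl12, against 9.58% of all 7639 genes compared, and 2 were at least 2-fold lower, against 5.54%. The median log2 ratio was 0.83, beside 0.12 over all genes. Ccl2, the main ligand of the monocyte receptor Ccr2, was at 1229 CPM in the selected cells, 451 CPM in Arg1-high and 446 CPM in Cxcl9 macrophages. Ccl7, another monocyte attractant, was at 551 CPM, against 147 and 264 CPM in the same groups. It was found in 15 selected cells (26.3%, against 3.47% of oligodendrocyte-gated cells), and without the cell that held 52 of its 164 UMIs its log2 ratio over Arg1-high macrophages was 1.40 in place of 1.91, and over Cxcl9 macrophages 0.55 in place of 1.06. The lower ones were Ccl6, at 910 CPM in the selected cells and 2224 CPM in Arg1-high macrophages, and Ccl24, at 33.6 and 273 CPM. With the limits of every gate applied to counts scaled to 7000 UMIs per barcode, 28 cells were selected and the list median over Arg1-high macrophages was 0.26.

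Over Cxcl9 macrophages the CC chemokine median was 1.02, beside 0.07 over all genes. At least 2-fold higher were 5 of 10 genes, against 8.93% of the 7668 genes compared, and 1 was at least 2-fold lower, against 6.05%. Ccl3 and Ccl4, which attract lymphocytes and monocytes, were at 685 and 1226 CPM in the selected cells, 265 and 626 CPM in Cxcl9 macrophages, and 378 and 692 CPM in Arg1-high macrophages. Ccl5, a T cell attractant, was lower than in Cxcl9 macrophages, at 4053 and 6013 CPM, and close to the Arg1-high level of 3886 CPM. The CC chemokine list was not higher than in microglia-gated cells, with a median of -0.12 over them. Of its 9 genes in that comparison 4 were higher and 5 lower. At least 2-fold higher were 2 and lower 0, against 9.62% and 5.67% of all genes. Summed over 12 CC chemokine genes, levels were 11947 CPM in the selected cells and 14239 CPM in microglia-gated cells. CXC chemokine genes had negative medians, of -0.73 over Arg1-high and -0.57 over Cxcl9 macrophages. Over Arg1-high macrophages 2 of 8 were at least 2-fold higher and 3 lower, against 9.58% and 5.54% of all genes. Over Cxcl9 macrophages 1 of 7 was higher and 2 lower, against 8.93% and 6.05%. Cxcl9 macrophages were gated on a CXC chemokine gene, so the direction over them is tied to the gate. Cxcl10, which is induced by interferon, was at 346 CPM in the selected cells, 121 in Arg1-high and 597 in Cxcl9 macrophages, and Cxcl11 at 40.3, 70.9 and 473 CPM.

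The genes of 4 of these chemokines lie close together on mouse chromosome 11 in RefSeq's GRCm38.p6 annotation. They are Ccl2 (chr11:82035577-82037452), Ccl7 (chr11:82045712-82047525), Ccl12 (chr11:82101845-82103399) and Ccl8 (chr11:82115185-82116799). The 250 bases upstream of Ccl12 and of Ccl8 are shown because these neighbouring genes were, in turn, the gene with the highest ratio and a gene of the rule. Both windows are on the plus strand, chr11:82101595-82101844 for Ccl12 and chr11:82114935-82115184 for Ccl8, and capitals mark the letters TATAAA.
Ccl12: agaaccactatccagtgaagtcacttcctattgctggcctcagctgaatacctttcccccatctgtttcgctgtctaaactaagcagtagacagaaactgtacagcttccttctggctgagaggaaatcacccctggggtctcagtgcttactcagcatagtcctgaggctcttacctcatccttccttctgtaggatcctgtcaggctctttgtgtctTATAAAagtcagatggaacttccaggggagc
Ccl8: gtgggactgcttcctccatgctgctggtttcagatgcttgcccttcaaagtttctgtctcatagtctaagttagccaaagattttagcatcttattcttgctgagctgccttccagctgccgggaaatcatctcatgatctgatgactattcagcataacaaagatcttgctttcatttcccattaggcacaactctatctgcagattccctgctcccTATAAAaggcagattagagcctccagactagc
The match begins 31 bases before the start of Ccl12 and 32 bases before that of Ccl8, and the letters TATAAA occur on either strand in 12.4% of 32851 windows of RefSeq genes of this length. Neither window holds TGANTCA, the AP-1 site, which is present on either strand in 6.75% of windows. A match is a description of letters and not a bound site.

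Genes of monocytes were lower in the selected cells as a group. Against Arg1-high macrophages 10 of 13 genes were at least 2-fold lower and 0 higher, against 5.54% and 9.58% of all genes, with a median of -1.47. Against Cxcl9 macrophages 6 of 13 were at least 2-fold lower and 0 higher, against 6.05% and 8.93% of all genes, with a median of -0.94. Chil3, which encodes a chitinase-like protein of alternatively activated and immature myeloid cells, was at 228 CPM in the selected cells (177 to 289), 2069 in Arg1-high and 1091 in Cxcl9 macrophages. Ly6c2, the surface marker of inflammatory monocytes, was at 359, 1132 and 1552 CPM. It was found in 12 of the 57 cells (21.1%, against 27.6% of oligodendrocyte-gated cells), 1 of which held 41 of its 107 UMIs. The chemokine receptor gene Ccr2 was at 90.7 CPM in the selected cells, 258 in Arg1-high and 176 in Cxcl9 macrophages. With at least 10 UMIs of Ccl8, Ms4a7 and Apoc1 asked for, 20 cells were left and the monocyte medians were -2.23 over Arg1-high and -1.73 over Cxcl9 macrophages. Cells gated as monocytes in the same library (407 cells) had 3320.2 CPM of Chil3 and 3508 CPM of Ly6c2.

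The lists that were lower than in Arg1-high macrophages also held matrix, glycolysis and cytokine genes. Of 15 matrix remodelling genes 8 were at least 2-fold lower and 2 at least 2-fold higher, against 5.54% and 9.58% of all genes (median -1.05). Fibronectin (Fn1) was at 336 CPM in the selected cells and 1249 CPM in Arg1-high macrophages, and Plaur, the urokinase receptor gene, at 101 and 399.9 CPM. Of 19 glycolysis and hypoxia genes 5 were at least 2-fold lower and 0 higher, beside the same shares of all genes (median -0.85). Vegfa, the hypoxia-induced angiogenic factor, was at 47.0 CPM in the selected cells and 218 CPM in Arg1-high macrophages, and the glycolytic enzyme gene Gapdh at 2377 and 4321 CPM. Of 15 inflammatory cytokine genes 7 were at least 2-fold lower and 1 higher, the higher one being Tnf at 80.6 and 25.0 CPM. Il1b, the interleukin 1 beta gene, was at 675 CPM in the selected cells, 2116 in Arg1-high and 1498 in Cxcl9 macrophages. Il6 had 0 UMIs in the selected cells and 50.8 CPM in Arg1-high macrophages, which is at least 5.04-fold lower against a floor of 3 counts in the summed cells. Nos2, the nitric oxide synthase that competes with arginase for arginine, had 1 UMI in the selected cells (3.36 CPM), against 54.3 CPM in Arg1-high (log2 ratio -3.43, -9.33 to -1.52) and 88.1 CPM in Cxcl9 macrophages (-4.14, -10.03 to -2.21). Against Cxcl9 macrophages the medians of these lists were -0.52, -0.51 and -0.51.

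Among complement and lipid genes, those of C1q and Trem2 were higher in the selected cells than in Cxcl9 macrophages. Of 15 complement genes 4 were at least 2-fold higher and 1 lower (median 0.63), and of 22 lipid handling genes 5 were higher and 0 lower (median 0.58), against 8.93% higher and 6.05% lower over all genes. C1qa, C1qb and C1qc, the chains of the complement starter C1q, were at 5017, 6349.8 and 6430.4 CPM in the selected cells. They were at 3349.9, 4115 and 3985 CPM in Cxcl9 macrophages and 2927, 3729 and 3571 CPM in Arg1-high macrophages. C1qb was found in all 57 selected cells. Trem2, a receptor for lipids and apolipoproteins, was at 611 CPM in the selected cells (526 to 707), 232 in Cxcl9 and 370.0 in Arg1-high macrophages. Apoe, the main apolipoprotein gene of brain macrophages, was at 29070.0, 17733 and 24359 CPM. Over Arg1-high macrophages the complement median was 0.16 and the lipid median 0.26, close to the 0.12 of all genes. There 4 of 15 complement and 4 of 21 lipid genes were at least 2-fold higher and 0 lower, against 9.58% and 5.54% of all genes. Microglia-gated cells were at like levels, with log2 ratios of the selected cells over them of 0.02 for Trem2 and 0.09 for Apoe. Over them the complement median was 0.27 and the lipid median 0.17, beside 0.07 over all genes. Complement genes summed to 20322 CPM in the selected cells, 12659 CPM in Arg1-high macrophages and 23477 CPM in microglia-gated cells. Pltp, a phospholipid transfer protein gene, was at 168 CPM in the selected cells, 45.1 in Arg1-high and 54.7 in Cxcl9 macrophages.

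Antigen-presentation lists stood near the other macrophages of the library, and interferon lists near Cxcl9 macrophages. MHC class I medians were 0.03 over Arg1-high and -0.11 over Cxcl9 macrophages, with 0 of 15 genes at least 2-fold higher in either. MHC class II medians were 0.20 and -0.31, and Cd74, which encodes the invariant chain, stood at 14523 CPM in the selected cells, 12349 in Arg1-high and 17948 in Cxcl9 macrophages. Interferon gamma GTPase medians were 0.49 and -0.09. Over Arg1-high macrophages 16 of 17 of these genes were higher and 1 lower, where 4467 of all 7639 genes were higher. Few of the 17 passed 2-fold, 1 higher and 1 lower. Of the lists not named elsewhere, the medians over both groups lay between -0.51 for arginine and polyamine genes and 0.34 for genes of the type I interferon response, both over Arg1-high macrophages.

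**Figure D2:**
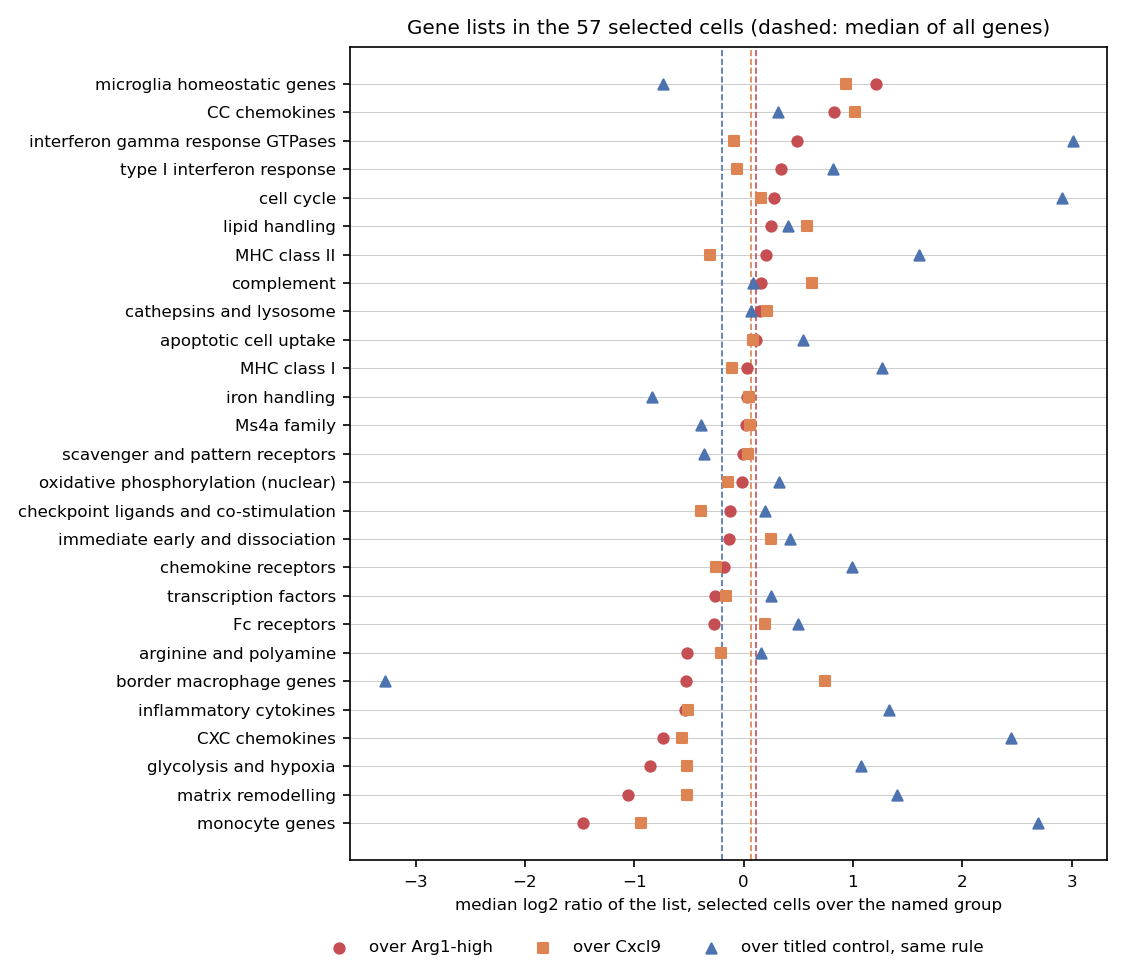
Median log2 ratio of each gene list in the 57 selected cells over Arg1-high macrophages (circles), over Cxcl9 macrophages (squares) and over the 24 titled control cells of the same rule (triangles), with dashed lines at the median of all genes compared. Monocyte genes lie at -1.47 and -0.94 within the library and at 2.69 over the titled control cells, and border macrophage genes at -3.28 over the titled control cells.

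Other genes with high ratios over Arg1-high macrophages included Hcar2. It encodes a receptor for hydroxybutyrate and niacin, and was at 399.6 CPM in the selected cells (331 to 478), 108 in Arg1-high and 181 in Cxcl9 macrophages, with UMIs in 32 of 57 cells (56.1%, against 5.13% of oligodendrocyte-gated cells) and at most 10 per cell. Microglia-gated cells held more Hcar2, with a log2 ratio of the selected cells over them of -1.05. Hpgds, the prostaglandin D synthase of haematopoietic cells, was at 151 CPM in the selected cells and 53.4 CPM in Arg1-high macrophages, and Tmem176a at 222 and 70.6 CPM, with 412 CPM in carcinoma-gated cells. Mmp13, a collagenase gene, and Lrg1 rested on 1 cell each. Mmp13 had 31 of 35 UMIs in 1 cell, and without it the log2 ratio over Arg1-high macrophages was -1.12 in place of 1.81. Without the deepest cell that of Lrg1 was -0.16 in place of 1.69. Among the lowest were the growth factor gene Inhba (6.72 CPM in the selected cells and 113 CPM in Arg1-high macrophages), Hopx (13.4 and 193 CPM), Socs2 (10.1 and 133 CPM) and Spink2 (10.1 and 130.0 CPM). Hgsnat had 0 UMIs in the selected cells and 35.6 CPM in Arg1-high macrophages, at least 3.53-fold lower.

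Saa3, an acute-phase serum amyloid gene, was at 11981 CPM in the selected cells, 4182 in Arg1-high macrophages, 5711 in Cxcl9 macrophages and 4534 in microglia-gated cells. It varied more among the 57 cells than any other gene, with a variance over mean of 108 after thinning to 2000 UMIs, against a median of 1.13 over 3012 genes. Counts ran from 0 to 1314 UMIs per cell around a median of 4, against a median of 2 in Arg1-high and 2 in Cxcl9 macrophages. A single Ms4a7-led cell held 36.8% of all Saa3 UMIs, and without it the log2 ratio was 0.90 in place of 1.52 over Arg1-high and 0.45 in place of 1.07 over Cxcl9 macrophages. The genes that varied most after Saa3 were Ccl5 (33.9), Ccl8 (29.8), Lyz2 (28.0), followed by Apoe, Fth1 (17.4) and Ccl12 (16.4). Saa3 was also 1 of 5 genes with at least 20 UMIs that were at least 2-fold higher in the selected cells than in every other gated group of the library. The remaining genes, Ackr1, Cldn5, Slco1a4 and Mmp13, each had nearly all UMIs in 1 cell.

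**Figure D3:**
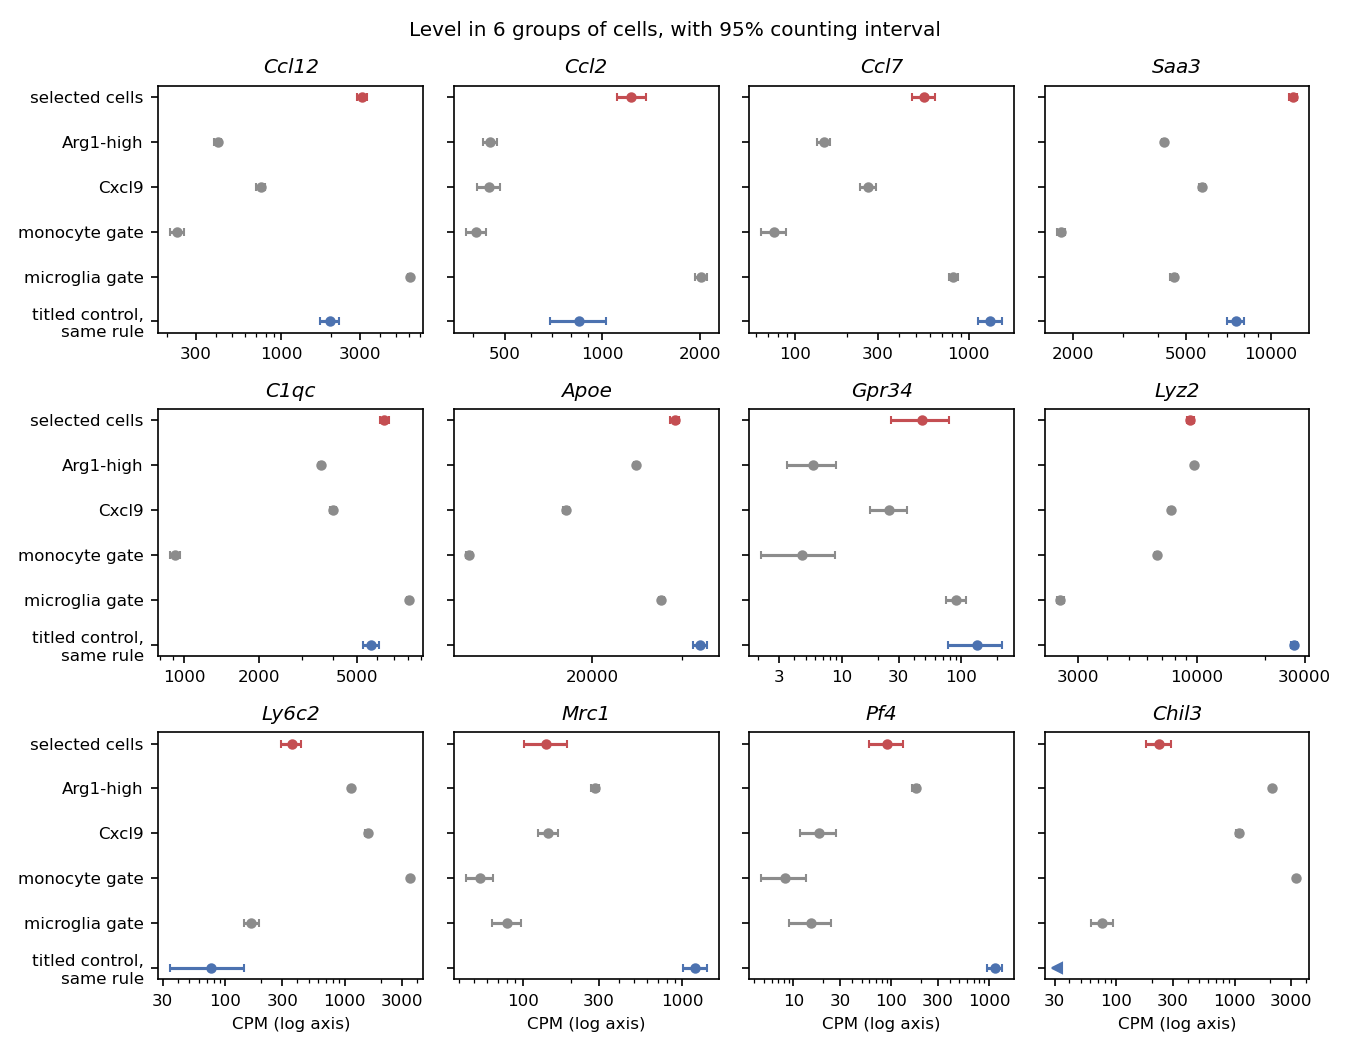
Level in CPM (log axes) of 12 genes in the 57 selected cells, 4 other gated groups of the titled positive library and the 24 titled control cells of the same rule, with exact Poisson 95% intervals. A triangle marks the upper limit where no UMI was found. Ccl12 lies at 3096 CPM in the selected cells, above Arg1-high, Cxcl9 and monocyte-gated cells and below microglia-gated cells, and Mrc1 and Pf4 lie far below the titled control cells.

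Several microglia genes that the rule did not use were higher in the selected cells than in the other macrophages, and the Apoc1-led cells held the most of them. Of 9 such genes 5 were at least 2-fold higher than in Arg1-high macrophages and 0 lower (median 1.21), and 3 of 9 than in Cxcl9 macrophages (median 0.94), against 9.58% and 8.93% of all genes higher and 5.54% lower than in Arg1-high macrophages. Summed over 11 homeostatic genes, levels were 7637 CPM in Apoc1-led, 4214 in Ccl8-led and 3090.2 in Ms4a7-led cells, against 3299 CPM in Arg1-high, 4443 in Cxcl9 macrophages and 10671 in microglia-gated cells. Ms4a7-led cells thus lay below both other macrophage groups, and Ccl8-led cells below Cxcl9 macrophages. All 3 groups had to meet the same limit on the 4 microglia genes of the rule. Sall1, a transcription factor gene restricted to microglia among brain macrophages, had 9 UMIs in 6 of the 57 cells (10.5%, against 4.68% of oligodendrocyte-gated cells). This was 30.2 CPM (13.8 to 57.4), against 0.574 CPM in Arg1-high macrophages and 50.7 CPM in microglia-gated cells. The receptor gene Gpr34 was at 47.0, 5.74 and 91.3 CPM in the same groups.

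Against microglia-gated cells monocyte genes had the highest list median (1.25, all genes 0.07). Of these, 7 of 12 were at least 2-fold higher in the selected cells and 0 lower, against 9.62% and 5.67% of the 7746 genes compared. Of 14 matrix remodelling genes 6 were at least 2-fold higher and 0 lower, and of 19 scavenger and pattern receptor genes 6 and 1. The 6 monocyte markers held 383 UMIs in the selected cells, 85 of them in 1 cell. Their per-cell median was 2, against 1 in microglia-gated cells. Homeostatic genes had a median of -0.88, a direction tied to the gate. Lyz2, a lysozyme gene of myeloid cells, was at 9382 CPM in the selected cells (9037 to 9736) and 2492 CPM in microglia-gated cells (2402 to 2583). The titled control cells of the same rule held more Lyz2, with a log2 ratio of the selected cells over them of -1.52. Galectin 3 (Lgals3) was at 1108 and 361 CPM, and Tgfbi at 839 and 317 CPM. Crybb1, a crystallin gene of microglia, had 1 UMI in the selected cells, against 172 CPM in microglia-gated cells (log2 ratio -5.09, -10.99 to -3.18), and the B cell attractant gene Cxcl13 was at 60.4 and 489.7 CPM. Ccl2 was at 1229 CPM in the selected cells and 2016 CPM in microglia-gated cells. Tnf was at 80.6 and 299 CPM, and Cst7, a gene of activated microglia, at 111 and 389.9 CPM.

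The cells differed by the gene that led their selection, a split made after the data were seen. The 24 Apoc1-led cells (116663 UMIs) had higher levels of genes such as Selplg and Csf1r and lower levels of Lyz2, Cxcl2 and Vcam1 than the other 33 (181140 UMIs). Of 731 genes with at least 60 UMIs, 23 were at least 2-fold higher and 43 at least 2-fold lower in the Apoc1-led cells, Apoc1, Ccl8 and Ms4a7 included. Hcar2 was found in 21 of 24 Apoc1-led cells and 11 of the other 33, at 823 and 127 CPM. Selplg, a selectin ligand gene of the homeostatic list, was at 471 and 149 CPM, with UMIs in 18 of 24 and 19 of 33 cells. Csf1r, 1 of 8 macrophage markers, was at 1629 CPM in Apoc1-led cells and 718 CPM in the others (log2 ratio 1.18, 0.85 to 1.52). Per-cell medians of Csf1r were 1789.9 and 524 CPM, and both sets held cells without a UMI. Ccl2 was at 1972 and 751 CPM, and the interferon-induced Gbp2 at 951 and 342 CPM.

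Lower in Apoc1-led cells were Lyz2, at 3352 CPM against 13266 CPM in the others, and the neutrophil attractant gene Cxcl2 (51.4 and 685 CPM). Vcam1, an adhesion molecule gene, was at 111 and 552 CPM, and Cfp, the properdin gene of the complement system, at 163 and 690.1 CPM. Summed over the markers that the rule did not use, microglia genes stood at 2743 CPM in Apoc1-led, 1121 in Ccl8-led and 680.4 in Ms4a7-led cells. Border macrophage markers ran the other way, at 223, 796 and 964 CPM. C1qc differed less, at 7329, 5995 and 5628 CPM, as did Apoe, at 31055, 27072 and 28918 CPM. Ccl12, which did not enter the rule, was at 3129, 3228 and 2835 CPM in the 3 sets, and thus near its overall level in each. Its per-cell medians were 1319.9 CPM in Apoc1-led cells and 438 CPM in the others, well below the summed levels, which a few cells in each set carried.

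**Figure D4:**
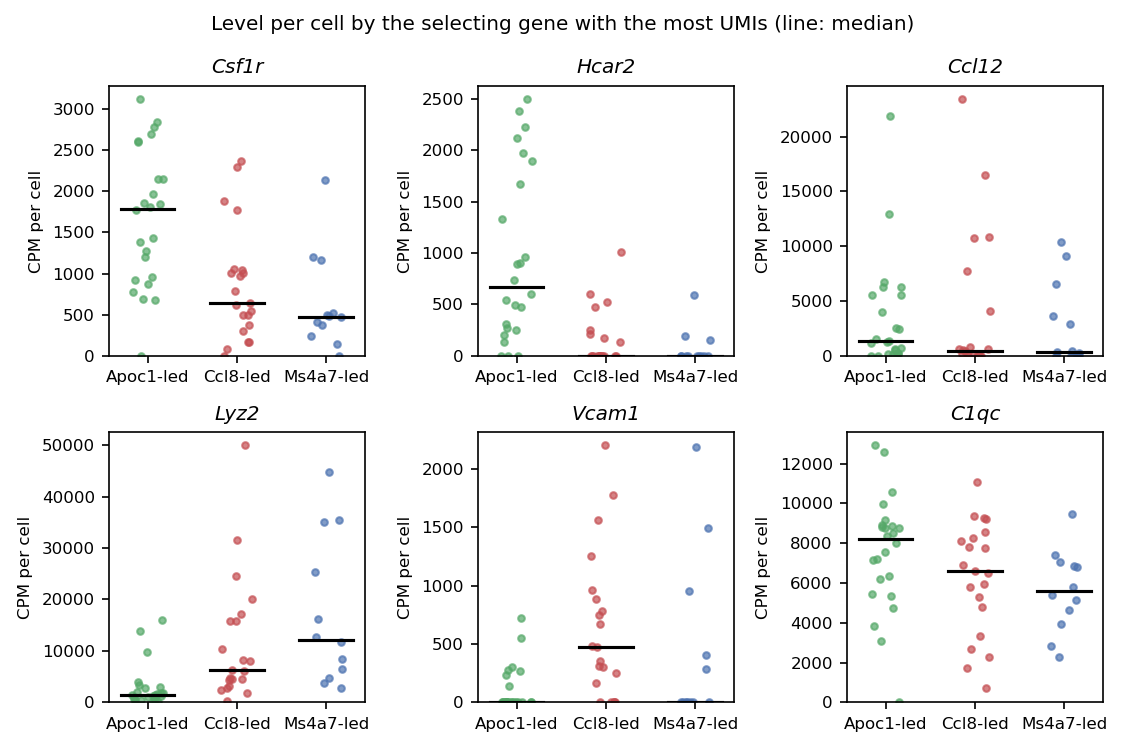
Level per cell in CPM of 6 genes in the 57 selected cells, split by whether Apoc1, Ccl8 or Ms4a7 held the most UMIs, with 1 point per cell and a line at the median. The medians of Csf1r and Hcar2 lie higher and that of Lyz2 lower in the 24 Apoc1-led cells, the median of Vcam1 is above 0 in Ccl8-led cells only, and the sets overlap in every panel.

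The 24 titled control cells that met the same rule held high levels of border macrophage genes, and the 57 selected cells did not. All 24 were led by Ms4a7, itself a gene of border macrophages, against 12 of the 57, so the groups met the rule mostly through different genes. Border macrophage markers summed to 4722 CPM in the titled control cells, 611 CPM in the selected cells and 964 CPM in their Ms4a7-led cells. Of 13 border macrophage genes 11 were at least 2-fold lower in the selected cells and 0 higher, against 26.8% and 15.2% of the 8112 genes compared (median -3.28, or -3.89 with every cell weighing the same, all genes -0.20). Mrc1 was at 141 CPM in the selected and 1202 CPM in the titled control cells. Pf4, a platelet-type chemokine of border macrophages, was at 90.7 and 1151 CPM, the carbonyl reductase gene Cbr2 at 13.4 and 372 CPM and Lyve1, a hyaluronan receptor gene, at 10.1 and 169 CPM. In the selected cells Pf4 was found in 6 cells, Cbr2 in 1 and Lyve1 in 1. Within the titled positive library the border list had a median of -0.53 over Arg1-high macrophages. There 2 of 8 genes were at least 2-fold higher and 2 lower, against 9.58% and 5.54% of all genes. Over Cxcl9 macrophages the border median was 0.75, with 2 of 11 higher and 1 lower, against 8.93% and 6.05% of all genes. Also lower than in the titled control cells were the F4/80 gene Adgre1 (178 and 1566 CPM), Fcrls (13.4 and 1786 CPM), the cholesterol hydroxylase gene Ch25h (90.7 and 897 CPM) and the lectin gene Clec4a1 (151 and 1117 CPM). With at least 10 UMIs of the 3 selecting genes asked for in both libraries, the log2 ratio of Ch25h was 0.16 in place of -3.29. Sparcl1, Car2 and Ptgds, which were among the 10 lowest genes, were more abundant in oligodendrocyte-gated cells of the titled control library than in these macrophages.

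Interferon, MHC and monocyte genes were higher in the selected than in the titled control cells. Of 17 interferon gamma GTPase and regulator genes 15 were at least 2-fold higher, against 15.2% of all genes (median 3.01). With the 4 genes at 0 in the titled control cells set to their bound against 3 counts, the number was 12 and the median 2.25. Gbp4 was at 682 CPM in the selected and 33.9 CPM in the titled control cells and the transcription factor gene Irf1 at 356 and 33.9 CPM. Of 15 MHC class I genes 12 were at least 2-fold higher (median 1.27), against the same 15.2%, and of 9 MHC class II genes 5 (median 1.61). The direction of the class II list turned when the titled control cells were chosen by Mrc1, Pf4 and Ms4a7 instead (45 cells, median -0.44). Monocyte genes had 10 of 14 at least 2-fold higher and 2 lower, against 15.2% and 26.8% of all genes (median 2.69, or 2.32 at the bound). That median was 1.67 with the filter on low genes replaced by at least 1 UMI in both groups. This left out the 4 monocyte genes at 0 in the titled control cells. With limits scaled to 7000 UMIs per barcode the monocyte median was 3.76. Ccr2 was among the lower ones, at 90.7 and 313 CPM.

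Ccl5 had the highest ratio of the genes counted in both, with 1207 UMIs in the selected cells and 1 in the titled control cells (log2 ratio 8.32, 6.42 to 14.21). Il1r2, the decoy receptor of interleukin 1, was at 406 CPM and 0 (at least 16.0-fold higher), the inhibitory receptor gene Cd300lf at 353 CPM and 0 (at least 13.9-fold) and Cxcl10 at 346 CPM and 0 (at least 13.6-fold). Of 9 CC chemokine genes (median 0.31), Ccl5 and Ccl6 were at least 2-fold higher, against 15.2% of all genes. Ccl3, Ccl7 and Ccl24 were at least 2-fold lower, against 26.8% of all genes. With 9 genes, neither count stands apart from those shares. Ccl12 was at 3096 CPM in the selected and 1972 CPM in the titled control cells, Ccl7 at 551 and 1329 CPM and Ccl3 at 685 and 2251 CPM. Library, depth and free RNA cannot be told apart from the group here. Oligodendrocyte markers summed to 426 CPM in the selected and 6102 CPM in the titled control cells, and astrocyte markers to 33.6 and 1083 CPM. Carcinoma markers summed to 399.6 CPM and 0. Free RNA was subtracted from every group in an alternative, as a profile summed over all barcodes of its library. The medians were then -3.42 for border macrophage genes, 2.97 for interferon gamma GTPase genes and 2.63 for monocyte genes.

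Proliferation genes were found in a minority of the selected cells. At least 3 of 9 proliferation genes were found in 7 of 57 cells (12.3%, 5.08 to 23.7%), against 13.8% of Arg1-high macrophages, 16.1% of Cxcl9 macrophages, 28.0% of microglia-gated cells and 0 of the 24 titled control cells, which allows up to 14.2% by the exact interval. With every cell thinned to 2000 UMIs and the limit lowered to at least 2 genes, the shares in the same groups were 15.8% (7.48 to 27.9%), 9.59%, 10.7%, 21.7% and 0%. Oligodendrocyte-gated cells of the titled positive library gave 5.28% by the first measure and 4.22% by the second. The selected cells were below Arg1-high and Cxcl9 macrophages by the first measure and above them by the second, so no order is read from these shares. Mki67 was at 63.8 CPM in the selected cells, 64.0 in Arg1-high and 85.9 in Cxcl9 macrophages.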

How the data were processed

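Members and gene lists were chosen with earlier results of these data known. The authors deposited 1 matrix of UMI counts per library, whole numbers per gene and barcode. Cell Ranger and the mouse build GRCm38 are named per the submitters' processing notes, without versions. How cells were called, which annotation release was used and whether strand counted is not given in the sources used here. Reads of near-identical MHC genes, pseudogenes and overlapping genes may therefore be split or shared.

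Counts were summed per gated group and divided by the group's total (CPM). Ratios add 0.5 counts to each sum, carry conditional exact binomial 95% intervals, and were kept for genes with a mean of at least 10 CPM over both groups. Genes at 0 were bounded with 3 counts. Named genes were list members chosen by role, the 10 highest and 10 lowest per comparison with at least 100 UMIs in the higher group (not all of them printed), genes 2-fold above every other gate and the 15 most variable genes. The genes of the split by leading gene were named after their values were seen. Doublets were called with Scrublet and removed in an alternative only. Scripts were tested on simulated data. Python 3.11.15, numpy 2.4.6, scipy 1.17.1, pandas 2.3.3, scanpy 1.11.5 and matplotlib 3.10.9 were used. Promoter sequences are from RefSeq, GRCm38.p6.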

Additional observations from a re-analysis of the deposited data

How the results depend on the processing

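The number of selected cells was 57 with called doublets left out, 20 with at least 10 UMIs of Ccl8, Ms4a7 and Apoc1 asked for, and 28 with limits applied to counts scaled to 7000 UMIs per barcode. Against Arg1-high macrophages the monocyte median was -2.23 in place of -1.47 with the sum at 10, and the CC chemokine median 0.26 in place of 0.83 with scaled limits. Against Cxcl9 macrophages the monocyte median was -1.73 in place of -0.94 with the sum at 10. Against the titled control cells the monocyte median was 2.69 in the main setting. It was 1.67 with only genes counted in both groups kept and 3.76 with scaled limits. The border macrophage median was -3.89 in place of -3.28 with every cell weighing the same. The direction turned for Mmp13 over Arg1-high macrophages (-1.31, sum at 10), Lrg1 over Arg1-high macrophages (-0.16, without the deepest cell, chosen after seeing the data), Ch25h over the titled control cells (0.16, sum at 10) and the MHC class II list (-0.44, titled control cells by Mrc1, Pf4 and Ms4a7). The causes were not tested. Turns were looked for only in named genes and lists of these 3 comparisons that were at least 2-fold higher or lower in the main setting. Among these, weighing every cell the same, subtracting free RNA, another filter on low genes and Arg1 at 10 UMIs turned no direction. Lists with smaller medians were not checked for a turn. Free RNA was estimated from the share of genes of other cell types, against a profile summed over all barcodes of the library. The estimate was 11.4% of the UMIs of the selected cells, from 7 carcinoma genes. It was 12.3% for the titled control cells, from 6 oligodendrocyte genes. These estimates rest on different genes and are not compared. With 57 cells, genes under about 10 UMIs have wide intervals. No paired analysis was possible because each title has 1 sample.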
